A study of Mus musculus with 2 samples.

Results

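Tip-like endothelial cells of mouse tumours are described here as they appear in 2 droplet libraries of single cells. They were chosen as cells with endothelial transcripts that were not dividing and that held at least 4 unique molecular identifiers (UMIs, each 1 captured RNA molecule) summed over 6 tip cell genes, Apln, Esm1, Angpt2, Dll4, Cxcr4 and Pdgfb. Their UMIs of these genes also had to outnumber those of the venous genes Ackr1 and Selp. The rule found 502 cells among 21580 barcodes, 160 of 10700 in the Myct1 knockout library and 342 of 10880 in the WT library. The cells were thus selected on their measured UMIs of the 6 markers, and the levels of these genes are given as a description. The same holds for every gene set against the endothelial cells that the rule left out, since all genes of a cell were counted together with its markers.

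The knockout library came from Cdh5-cre Myct1 fl/fl mice (written Cdh-cre in the sample's own label), and the other library from WT mice. Cre driven by the promoter of Cdh5, the gene of vascular endothelial cadherin, is active in endothelium generally, so the deletion was not confined to tumour vessels or to tip-like cells. Both libraries were made from C57BL/6 tumour tissue pooled from 4 mice each, digested with collagenase, dispase and deoxyribonuclease and prepared with a 10x Chromium 3' kit. No source used here gives the tumour model, the age of the mice, any sorting of cells, the floxed exon, or whether the WT mice carried Cre or a floxed allele. Each genotype had 1 library, so nothing was tested and no standard error could be had. Every interval below is a 95% interval that covers counting error only, and a difference between libraries cannot be told apart from one between genotypes.

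Tip cells lead a growing vessel sprout. In sprouting vessels, vascular endothelial growth factor (VEGF) acting on the receptor VEGFR2, encoded by Kdr, raises the Notch ligand Dll4 in the leading cell, and Dll4 restrains sprouting in its neighbours through Notch. The markers of the rule have known parts in this process. Apln encodes the secreted peptide apelin, Esm1 the secreted proteoglycan endocan, Angpt2 the TIE2 ligand angiopoietin 2, Cxcr4 a chemokine receptor, and Pdgfb a growth factor that recruits pericytes. In tumours, where VEGF is made continually, tip-like cells are a regular part of the endothelium.

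The libraries held 145331950 UMIs in the knockout and 115519153 UMIs in WT, with medians of 12921 and 8726 UMIs per barcode. After a filter of at least 500 detected genes and at most 10% mitochondrial UMIs, 8033 knockout and 7820 WT cells remained. Although the labels name endothelial cells as the source, the endothelial gate passed 302 knockout and 542 WT cells, and most other cells were keratin positive (6579 knockout, 3778 WT) or collagen positive (106 knockout, 2717 WT). Of the endothelial cells, 57 in the knockout and 27 in WT were cycling. The remaining 85 knockout and 173 WT endothelial cells, neither tip-like nor cycling, are called other endothelial cells below. The 2 barcode lists shared 218 barcode sequences. Of the knockout members, 2 had a barcode that also occurs in the WT list, and of the WT members, 3 had one that occurs in the knockout list.

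Myct1, the gene deleted in the knockout, is missing from the knockout table, which holds genes that reach 4 UMIs in at least 1 barcode. In WT it stood at 243 counts per 1000000 UMIs of the summed cells (CPM; interval 225 to 262) in tip-like cells and at 234 CPM in other endothelial cells. WT tip-like cells with a Myct1 UMI made up 77.5%, at a median of 7298 UMIs per cell, against 0.582% of WT keratin positive cells at a median of 15763 UMIs. Because the floxed exon is not known and the kit reads the 3' end, these counts do not show whether a shortened transcript was made.

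Endothelial genes that the gate did not use went with the label. Pecam1, an adhesion molecule of all endothelium, was found in each of the 160 knockout and 342 WT tip-like cells, at 1123 CPM in the knockout and 1467 CPM in WT, against 14.3 and 13.7 CPM in keratin positive cells. The VEGF receptor genes Kdr (252 CPM knockout, 589 CPM WT) and Flt1 (959.7 CPM knockout, 1312 CPM WT), the tight junction gene Cldn5 (826 and 912 CPM) and the receptor kinase gene Tie1 (218 and 371 CPM) were also present. Csf1r, a macrophage receptor gene, was at 0 in tip-like cells of both libraries. Other immune markers were not, and 11.25% of knockout and 11.7% of WT members had a UMI of the 11 listed. Keratin positive cell markers were not absent, with a UMI in 28.8% of knockout and 24.0% of WT members. Lymphatic Prox1 was low, at 6.13 CPM in the knockout and 4.71 CPM in WT. A UMI of any of 9 lymphatic markers was present in 61.25% of knockout and 73.7% of WT members.

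Tip-like cells were the larger share of the non-cycling endothelium in both libraries, 65.3% in the knockout (160 of 245, exact Clopper-Pearson interval 59.0 to 71.3) and 66.4% in WT (342 of 515, 62.1 to 70.5). Tip-like cells were deeper than the other endothelial cells, with medians of 7742 against 4616 UMIs in the knockout and 7298 against 4723 UMIs in WT, and a deeper cell passes a fixed UMI count more easily. After each cell was thinned to 3000 UMIs and gated at 2 marker UMIs, which left out 24 knockout and 38 WT cells, the shares were 64.7% in the knockout (143 of 221, 58.0 to 71.0) and 66.5% in WT (317 of 477, 62.0 to 70.7). The 2 libraries thus overlapped in this share with and without thinning. Measured against all endothelial cells, the share was 53.0% in the knockout (47.2 to 58.7) and 63.1% in WT (58.9 to 67.2). The cycling cells that enter this second denominator were 18.9% of knockout endothelial cells (14.6 to 23.8) and 4.98% of WT endothelial cells (3.31 to 7.17).

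The marker sum of a tip-like cell had a median of 12 UMIs in the knockout (quartiles 6 and 20, highest 102) and 10.5 UMIs in WT (quartiles 6 and 20, highest 177). Most members carried several of the markers. At least 3 of the 6 markers were found in 137 knockout members (85.6%) and 273 WT members (79.8%), and the median was 4 markers in both libraries. Apln or Esm1 was found in 116 knockout members (72.5%) and 200 WT members (58.5%). Some members passed only with a given marker counted. With 1 marker left out of the sum, the gated knockout cells numbered from 135 without Dll4 to 158 without Esm1. In WT they numbered 277 without Dll4 and 334 without Esm1. At the threshold, 15 knockout and 38 WT cells had exactly 4 marker UMIs and 16 knockout and 32 WT cells had 3. A UMI of Ackr1 or Selp was present in 9 knockout and 30 WT members, and 1 knockout and 2 WT cells with enough marker UMIs were kept out by these venous genes. Most endothelial cells left outside were not venous by these genes either, since the venous-gated cells numbered 10 in the knockout and 28 in WT.

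The 6 markers made up the sum unevenly, and the mix differed between the libraries. Apln gave 25.8% of the marker UMIs in knockout members and 18.6% in WT members. Its level was 490.1 CPM in knockout members (455 to 527) and 379 CPM in WT members (356 to 403). Esm1 stood at 215 CPM in the knockout and 150.0 CPM in WT, and Angpt2 at 423 and 407 CPM with intervals that overlapped (391 to 458 in the knockout, 384 to 432 in WT). Apln and Esm1 were thus higher in knockout members. The other 3 markers were lower in knockout members. Dll4 was at 292 CPM in the knockout and 387 CPM in WT, Cxcr4 at 222 and 331 CPM, and Pdgfb at 254 and 384 CPM. Because the gate sums the markers, a lower level of some allows members in only with more of others, so these 6 levels are not independent of each other.

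**Figure D1:**
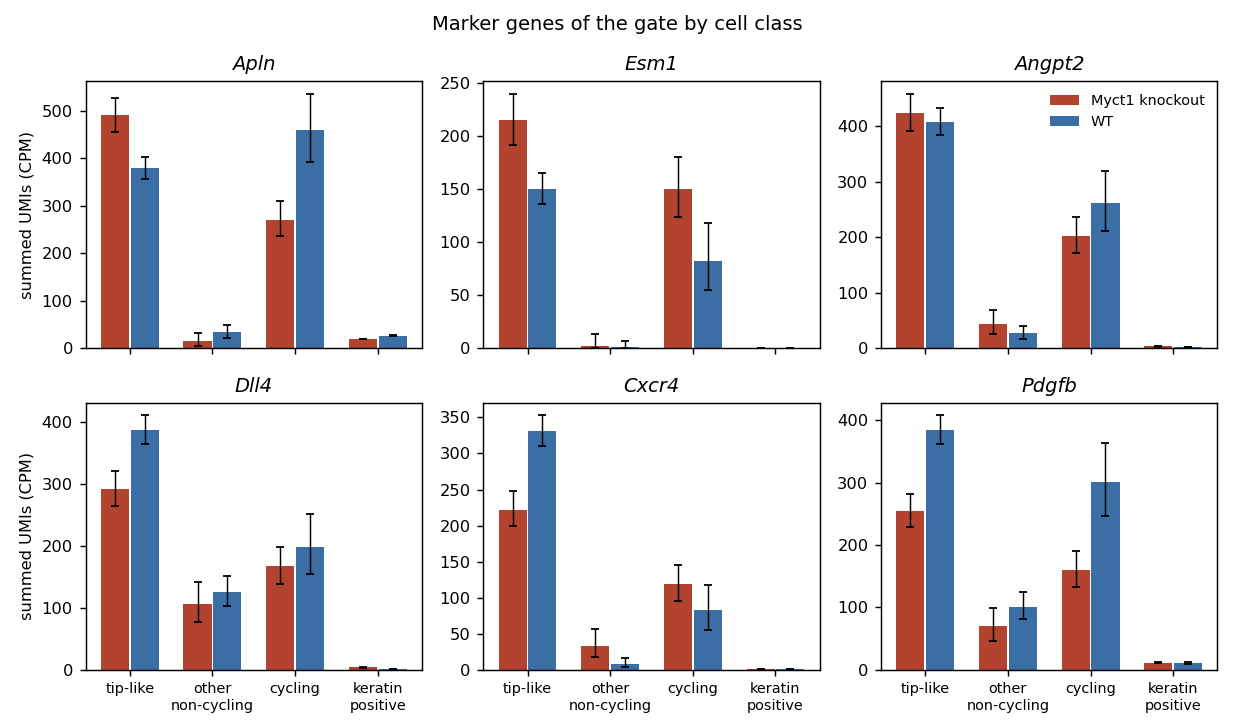
Summed UMIs of each marker gene in CPM (vertical axes, linear from 0) by cell class, with Myct1 knockout bars left of WT bars and 95% Poisson intervals as error bars. Tip-like and cycling cells carry the markers, with Apln at 490.1 CPM in knockout and 379 CPM in WT tip-like cells, while keratin positive cells lie near 0 for Esm1.

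The markers were not equally private to the gated cells. Esm1 was the most restricted, at 2.39 CPM in other endothelial cells of the knockout and 1.16 CPM in those of WT, and at 0.313 and 0.0994 CPM in keratin positive cells. Dll4 was the least restricted within endothelium, with 105 CPM in other endothelial cells of the knockout and 125 CPM in those of WT. Apln and Pdgfb had a signal outside endothelium. Pdgfb had a UMI in 13.0% of knockout and 11.5% of WT keratin positive cells, at 11.2 and 10.8 CPM, and Apln had one in 22.2% of knockout and 25.2% of WT keratin positive cells at medians of 16689 and 15763 UMIs, though at only 19.4 and 26.3 CPM. In tip-like cells, Apln was found in 65.6% of knockout and 44.2% of WT cells, at medians of 7742 and 7298 UMIs. Cycling endothelial cells, which the rule kept out, carried the markers as well, for example 271 CPM of Apln in the knockout and 459 CPM in WT.

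To give each marker a level that its own counts had not chosen, cells were gated on the other 5 markers, with the same limit of 4 UMIs, and the marker was read in the gated and in the remaining non-cycling endothelial cells. All 6 markers were higher in the gated cells of both libraries. Esm1 had the widest gap, with 212 CPM in gated against 16.3 CPM in remaining knockout cells (13.0-fold) and 147 against 18.5 CPM in WT cells (7.94-fold). Apln followed at 472 against 138 CPM in the knockout (3.42-fold) and 375 against 89.3 CPM in WT (4.20-fold). Cxcr4 differed 2.61-fold in the knockout and 3.81-fold in WT, and Pdgfb 2.19-fold and 1.95-fold. Angpt2 was at 394 against 197 CPM in the knockout and 394 against 110.5 CPM in WT. Dll4, which is also an arterial gene, differed least, with 282 against 187 CPM in the knockout (1.51-fold) and 367 against 249 CPM in WT (1.47-fold). The remaining cells here include members of the full gate that leaned on the marker left out, and gated cells were deeper.

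Beyond the markers, tip-like cells of both libraries had higher levels of Pgf, Adm, Kcnj2, Kcne3, Odc1 and Nid2, among others, than other endothelial cells of the same library. Among genes with at least 100 CPM in 1 of the classes compared, 39 of 1699 in the knockout library and 45 of 1951 in the WT library were at least 2-fold higher in tip-like cells, which is 2.3% and 2.31% of the genes compared. At least 2-fold lower were 47 in the knockout library and 33 in the WT library, 2.77% and 1.69%. Of the genes with this level in both libraries, 19 were 2-fold higher (1.3% of 1462) and 8 were 2-fold lower (0.547%), and no gene was 2-fold higher in one and lower in the other. The 19 are 48.7% of the knockout list and 42.2% of the WT list. This contrast is the one that defined the gate, so the counts are read no further.

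The gene furthest apart was Pgf, which encodes placental growth factor, a ligand of the VEGF receptor FLT1. It stood at 511 CPM in tip-like against 76.5 CPM in other endothelial cells of the knockout library (log2 ratio 2.74, interval 2.23 to 3.30) and at 167 against 8.10 CPM in the WT library (log2 ratio 4.37, 3.31 to 5.69). The WT value rests on 7 UMIs in other endothelial cells. Pgf was carried by many cells, 96 of the knockout and 86 of the WT members, at 9.08 and 12.7 CPM in keratin positive cells. Adm, the gene of the vasodilator peptide adrenomedullin, was at 341 against 98.1 CPM in the knockout (log2 ratio 1.80) and 174 against 35.9 CPM in WT (2.28). Gal, which encodes the neuropeptide galanin, was at 288 against 81.3 CPM in the knockout and 146 against 18.5 CPM in WT, but in few cells. Only 32 knockout and 36 WT members had a Gal UMI, and the 5 richest cells held 64.0% of the UMIs in the knockout and 59.4% in WT.

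Kcnj2 and Kcne3 were named next. Kcnj2, which encodes the inward rectifier Kir2.1, was at 103 against 16.7 CPM in the knockout (log2 ratio 2.62) and 175 against 30.1 CPM in WT (2.54). Kcne3, which encodes an accessory subunit of voltage-gated channels, was at 217 against 40.7 CPM in the knockout (2.41) and 100.3 against 33.5 CPM in WT (1.58). Both were close to absent from keratin positive cells, at under 1 CPM in either library. Odc1, the first enzyme of polyamine synthesis, was at 256 against 81.3 CPM in the knockout and 223 against 71.7 CPM in WT. Nid2, which encodes the basement membrane linker nidogen 2, was at 391 against 189 CPM in the knockout and 455 against 204 CPM in WT.

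The remaining named genes lay between 1.04 and 2.03 on the log2 scale in both libraries. They were the imprinted gene Mest, Arhgap18 for a GTPase activating protein, Raph1 for the lamellipodin protein of the leading edge, the protease genes Prss23 and Adamts7, Nes for the intermediate filament nestin, and Chst1 for a sulfotransferase. Mest was the most abundant of these, at 688 against 261 CPM in the knockout and 336 against 104 CPM in WT, and was found in 86.2% of knockout and 54.1% of WT members. Genes with far higher levels in keratin or collagen positive cells, which free RNA in the droplets can bring into any cell, were kept apart. Of these, Pmepa1, Fn1 and Lgals1 were the furthest apart, with log2 ratios of 1.08, 1.07 and 0.64 in the knockout and 0.92, 0.80 and 0.70 in WT.

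**Figure D2:**
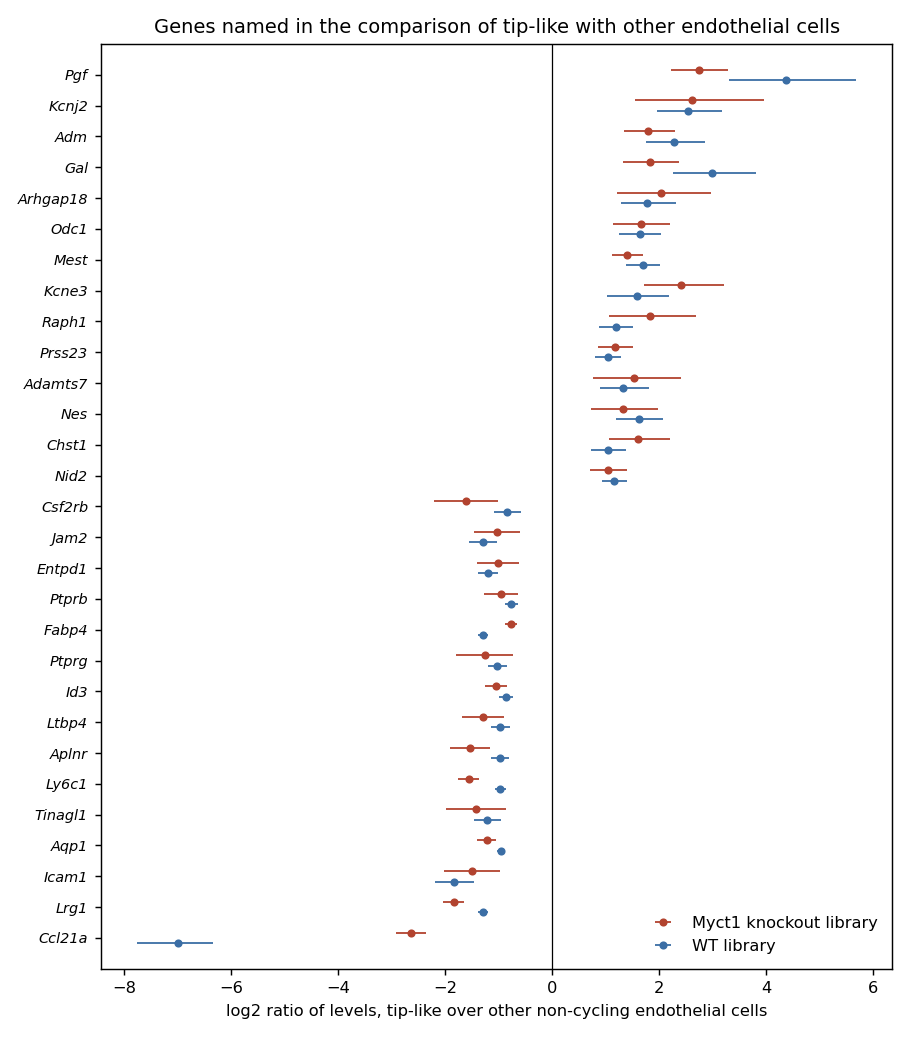
Log2 ratio of levels in tip-like over other endothelial cells (horizontal axis) for 29 named genes (1 line each), with the knockout library above the WT library for each gene and 95% counting intervals as bars. The libraries lie on the same side of 0 for each gene because the rule for naming required it, and Pgf has the highest ratios, 2.74 in the knockout and 4.37 in WT.

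The promoters of a marker and of 3 of the genes named above are shown, picked after their values were seen, so that the letters upstream of genes higher in tip-like cells can be read. Each is the stretch of 250 bases upstream of the transcription start from RefSeq (build GRCm38.p6), written 5' to 3' along the gene. Capitals mark GGAAG on either strand (CTTCC on the other strand), the core letters that ETS factors bind.
Apln, chrX:48034854-48035103, minus strand: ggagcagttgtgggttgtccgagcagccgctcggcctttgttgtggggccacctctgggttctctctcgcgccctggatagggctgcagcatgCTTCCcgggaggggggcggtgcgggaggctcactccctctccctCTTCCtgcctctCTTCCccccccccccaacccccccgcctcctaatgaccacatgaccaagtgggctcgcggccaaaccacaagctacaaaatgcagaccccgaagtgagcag
Pgf, chr12:85177314-85177563, minus strand: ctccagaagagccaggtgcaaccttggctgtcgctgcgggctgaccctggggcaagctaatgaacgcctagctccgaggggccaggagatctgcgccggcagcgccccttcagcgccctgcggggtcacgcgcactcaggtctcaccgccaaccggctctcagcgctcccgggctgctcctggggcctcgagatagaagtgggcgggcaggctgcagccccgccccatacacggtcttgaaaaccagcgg
Adm, chr7:110627407-110627656, plus strand: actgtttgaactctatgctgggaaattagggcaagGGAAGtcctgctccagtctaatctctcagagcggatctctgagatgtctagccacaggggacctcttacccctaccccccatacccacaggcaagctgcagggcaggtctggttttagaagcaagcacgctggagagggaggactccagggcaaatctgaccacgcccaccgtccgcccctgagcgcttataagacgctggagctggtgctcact
Kcne3, chr7:100176420-100176669, plus strand: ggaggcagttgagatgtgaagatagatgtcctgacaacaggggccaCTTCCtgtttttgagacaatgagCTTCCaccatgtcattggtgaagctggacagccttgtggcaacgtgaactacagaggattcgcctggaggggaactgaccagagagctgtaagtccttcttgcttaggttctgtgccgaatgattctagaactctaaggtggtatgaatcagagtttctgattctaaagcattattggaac

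The letters GGAAG occurred 3 times in the Apln stretch, 2 times in that of Kcne3, 1 time in that of Adm and not in that of Pgf. A promoter was found in the RefSeq table for 4 of the 6 markers and 12 of the 15 named genes. GGAAG on either strand was present in 2 of the 4 and 9 of the 12, against 63.6% of 27025 promoters of the same length. ACGTG on either strand, the core letters of the hypoxia response element, was present in 0 of the 4 and in 2 of the 12 (Kcnj2 and Kcne3), against 16.6% of all promoters. It did not overlap GGAAG in Kcne3. These are counts of letters in a fixed window and say nothing of binding.

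Genes outside the gate were also followed over the marker sum, in bins of 0 to 1, 2 to 3, 4 to 5, 6 to 9 and 10 or more marker UMIs per cell. Endothelial cells with at least as many venous as marker UMIs were left out, except that cells with no UMI of either were kept. The bins held 38, 33, 27, 40 and 93 cells in the knockout and 69, 68, 71, 90 and 181 cells in WT. Depth moved with the bins, since the median cell had 3845 UMIs in the lowest and 9189 UMIs in the highest bin of the knockout, and 4105 and 8123 UMIs in WT. The part of depth in these levels was not tested.

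Pgf was concentrated in the cells with the most marker UMIs. Its level over the bins was 128, 72.5, 214, 284 and 644 CPM in the knockout and 14.2, 7.79, 9.05, 72.9 and 243.5 CPM in WT. In WT, cells with 4 or 5 marker UMIs thus had as little Pgf as cells with fewer, and the level was higher from 6 marker UMIs on. In the knockout, the lowest bin already held 128 CPM (interval 77.0 to 199.8). Kcne3 ran at 33.7, 50.2, 220.3, 154 and 238 CPM in the knockout and at 10.7, 62.3, 49.8, 65.0 and 127 CPM in WT. Adm was at 402 CPM in the highest bin of the knockout and 248 CPM in that of WT, with 394 and 36.2 CPM in the bin of 4 to 5 marker UMIs. Mcam, which encodes the adhesion molecule CD146, was at 404 CPM in the lowest and 817 CPM in the highest bin of the knockout, and at 682 and 1464 CPM in WT.

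Cd36, the fatty acid transporter of capillaries, was low throughout the knockout, at 175, 33.5, 40.6, 91.7 and 74.2 CPM over the bins, and in WT it was lowest in the highest bin, at 938, 761, 846, 598 and 248 CPM. Pecam1 stayed between 929 and 1203 CPM in the knockout and between 1407 and 1619 CPM in WT. At the threshold itself, 15 knockout and 38 WT cells with exactly 4 marker UMIs stand beside 13 knockout and 28 WT cells with 3 that also had fewer venous UMIs. Pgf was at 108 CPM in the knockout and 12.3 CPM in WT just inside, against 183 and 12.5 CPM just outside. Mcam was at 710 CPM in the knockout and 951 CPM in WT just inside, against 647 and 949.7 CPM just outside. Kcne3 was at 204 CPM in the knockout and 32.9 CPM in WT just inside, against 42.2 and 74.98 CPM just outside, on 3 to 19 UMIs each. Adm was at 366 CPM in the knockout and 49.4 CPM in WT just inside, against 225 and 74.98 CPM just outside. Cells on either side of the threshold were thus not set apart by these genes in the same way in both libraries.

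**Figure D3:**
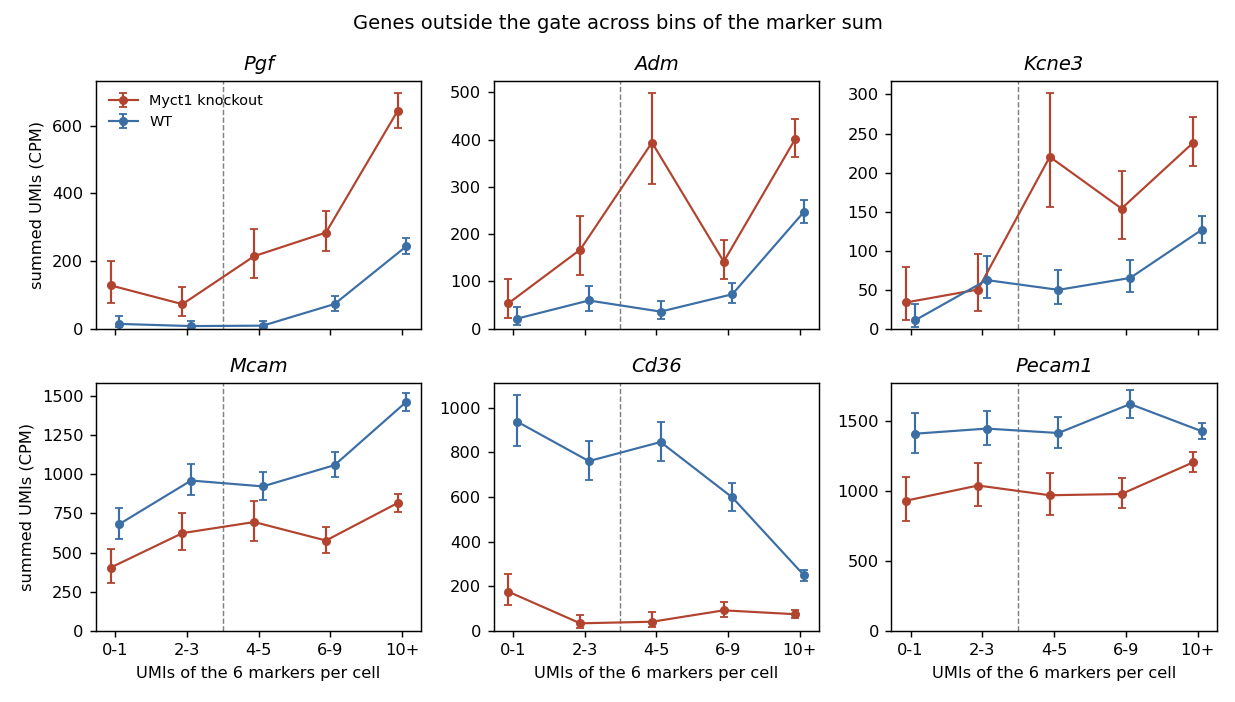
Levels in CPM (vertical axes, linear from 0) of 6 genes outside the gate over bins of marker UMIs per cell (horizontal axes), for the Myct1 knockout and WT libraries, with 95% Poisson intervals. The dashed line is the threshold of the rule. Pgf reaches 644 CPM in the knockout and 243.5 CPM in WT in the highest bin. Pecam1 is at 929 CPM in the lowest and 1203 CPM in the highest bin of the knockout, and at 1407 and 1424 CPM in WT.

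Lower in tip-like cells were Lrg1, Icam1, Aplnr, Aqp1 and Fabp4, among others. Lrg1, which encodes a secreted glycoprotein of venules, was at 287 CPM in tip-like against 1026 CPM in other endothelial cells of the knockout (log2 ratio -1.84) and at 835 against 2049 CPM in WT (-1.30). Icam1, the leukocyte adhesion molecule, was at 49.1 against 139 CPM in the knockout and 45.6 against 162 CPM in WT. Aplnr, the receptor of apelin, was at 94.1 against 273 CPM in the knockout (-1.54) and 256 against 503 CPM in WT (-0.98). The water channel gene Aqp1 was at 436 against 1019 CPM in the knockout and 1229 against 2379 CPM in WT. The fatty acid binding protein gene Fabp4 was at 1571 against 2679 CPM in the knockout and 892 against 2182 CPM in WT.

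The lymphatic chemokine gene Ccl21a had the lowest ratios, -2.64 in the knockout and -7.00 in WT, but it came from 3 knockout and 3 WT members and from 5 and 9 other endothelial cells. The other named genes were Tinagl1, Ly6c1, Ltbp4, Id3, Ptprg, Ptprb, Entpd1, Jam2 and Csf2rb, with log2 ratios from -0.76 to -1.61. They include a transcriptional inhibitor of the ID family (Id3), a pair of receptor phosphatases (Ptprg and Ptprb, the second also known as VE-PTP) and the junctional adhesion molecule gene Jam2. Timp2, Bgn and Igfbp4 were lower too but lie above the free RNA limit, with log2 ratios of -1.44, -1.56 and -0.35 in the knockout and -1.39, -0.74 and -0.35 in WT.

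The gene lists were compared by members with at least 30 UMIs over the cells compared and a difference of at least 1.5-fold. Over all genes with that many UMIs, 13.3% were 1.5-fold higher and 10.8% 1.5-fold lower in tip-like cells of the knockout, and 8.82% and 7.99% in WT, with medians of -0.0037 and -0.010 on the log2 scale. A list of 25 tip cell genes held 1 gene of the endothelial gate, Cd93, and of the other 24, 23 were measured in each library. In the knockout library 15 were higher and 0 lower (list median 0.78), and in the WT library 13 were higher and 0 lower (0.64). Apart from Pgf, Kcne3, Arhgap18 and Adm, they included Unc5b, a netrin receptor gene, at 88.0 against 27.8 CPM in WT. Igfbp3, an insulin-like growth factor binding protein gene, was the most abundant of the list, at 5998 against 2569 CPM in the knockout and 5293 against 3561 CPM in WT.

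Venous genes gave the reverse picture, with 1 of 13 higher and 11 lower in the knockout (median -1.26) and 1 of 14 higher and 11 lower in WT (median -0.80). Cpe, which encodes a carboxypeptidase, was the one higher in each. Vcam1, an adhesion molecule for leukocytes, was at 46.4 against 218 CPM in the knockout and 27.9 against 76.3 CPM in WT, and Nr2f2, the venous fate regulator COUP-TFII, was at 34.8 against 59.8 CPM in the knockout and 95.6 against 236 CPM in WT. These lists were written with the gate in view and Ackr1 and Selp were used against members, so neither list is independent of the rule.

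Within the VEGF list, 2 ligand genes were higher in tip-like cells. Beside Pgf, Vegfa was at 38.2 against 21.5 CPM in the knockout and 24.3 against 4.63 CPM in WT. The last value rests on even fewer UMIs than the 7 of Pgf in the same cells. List members were not held to the free RNA limit. The receptors were not among the higher genes. Kdr stood at 252 against 249 CPM in the knockout and 589 against 645 CPM in WT, and Nrp2, a co-receptor, was lower in WT at 150.0 against 261 CPM. For the Notch pathway, 4 of 10 genes were higher in the knockout (median 0.42) and 2 of 10 in WT (median 0.17). Of all genes, 13.3% and 8.82% were higher. Notch4, an endothelial Notch receptor gene, was in both sets, at 179 against 88.5 CPM in the knockout and 233 against 150.3 CPM in WT. Jag1, the gene of a Notch ligand that competes with DLL4, was at 56.6 against 21.5 CPM in the knockout, and Hey1, a Notch target, at 60.9 against 32.4 CPM in WT.

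The list counts that follow stand beside 13.3% of all genes higher and 10.8% lower in the knockout, and 8.82% and 7.99% in WT. Hypoxia and glycolysis genes were more often higher than lower. In the knockout 11 of 24 were higher and 0 lower (median 0.48), and in WT 9 of 23 were higher and 1 lower (median 0.40). Adm led in the knockout. In WT, Egln3, which encodes an oxygen-sensing hydroxylase, was at 38.0 against 11.6 CPM and Pfkfb3, an activator of glycolysis, at 53.3 against 20.8 CPM, while Ndrg1 was lower at 161 against 338 CPM. Basement membrane genes had 2 of 14 higher in the knockout, near the share of all genes, and 5 of 14 in WT. Nid2 and Lama4, the gene of a laminin chain, were higher in both. Lama4 was at 410.3 against 239 CPM in the knockout and 541 against 267 CPM in WT. Lamb2, another laminin chain gene, was the one lower in each. Guidance and migration genes had 2 of 14 higher, also near the share of all genes, and 3 lower in the knockout (median 0.11). In WT, 3 of 15 were higher and 1 lower (median 0.37). Unc5b and Fscn1, which encodes the actin bundler fascin, were higher in both libraries, and the ephrin receptor gene Ephb4 was lower in both. Pan-endothelial genes stayed near level, with medians of -0.15 in each library. Capillary and lipid handling genes moved in both directions. In the knockout 4 of 13 were higher and 6 lower (median -0.31), and in WT 2 of 15 were higher and 6 lower (median -0.05). Antigen presentation and interferon genes differed between the libraries, with 2 of 21 higher and 9 lower in the knockout (median -0.42) but 1 of 19 higher and 1 lower in WT (median -0.01). That difference was not tested.

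Markers of other cell types moved with the class as well. The summed level of 13 mural cell markers was 248 CPM in tip-like against 172 CPM in other endothelial cells of the knockout and 389 against 118 CPM in WT. Of their UMIs in tip-like cells, 151 of 364 in the knockout and 454 of 1073 in WT were in 5 cells. Rgs5, a pericyte gene, was found in 3 knockout and 15 WT members, with 90.5% of the knockout UMIs in 1 cell. Kcnj8 and Abcc9, which encode the subunits of a potassium channel of pericytes and of some capillary endothelium, were more widely spread, Kcnj8 in 56 knockout and 76 WT members. The 13 fibroblast markers summed to 85.2 against 50.2 CPM in the knockout and 329 against 280 CPM in WT. Lum and Pdgfra were at 0 in knockout members. Of the fibroblast marker UMIs in tip-like cells, 114 of 125 in the knockout and 532 of 907 in WT were in 5 cells. Of 15 keratin positive cell markers, 11 were listed for the knockout and 13 for WT. They summed to 177 against 105 CPM in the knockout and 79.0 against 46.3 CPM in WT, with Epcam and Cdh1 at 0 in both. Of their UMIs in tip-like cells, 200 of 259 in the knockout and 122 of 218 in WT were in 5 cells. Of 16 immune markers, 11 were listed for each library. They summed to 21.8 against 23.9 CPM in the knockout and 53.3 against 37.0 CPM in WT. The 9 lymphatic markers summed to 336 against 1272 CPM in the knockout and 411 against 1707 CPM in WT. In other endothelial cells, 427 of 532 lymphatic marker UMIs in the knockout and 915 of 1476 in WT were in 5 cells. With a stricter exclusion of cells carrying such markers, the log2 ratio of Pgf was 2.68 in the knockout and 4.65 in WT. Under the same exclusion, 155 ratios of named genes and list medians stayed close to their values, a gene within its counting interval, and 17 moved further.

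Between the genotypes, knockout tip-like cells had higher levels of hypoxia and glycolysis genes, of interferon genes and of Pgf than WT tip-like cells. They had lower levels of most endothelial transcription factor and guidance genes measured. Other endothelial cells differed in the same directions for Pgf and for these list medians. Among genes with at least 100 CPM in 1 library, 41 of 1944 stood 2-fold or more above WT in the knockout and 194 stood 2-fold or more below, 2.11% and 9.98% of those compared. The split depended on scaling, because the median gene itself was at -0.15 on the log2 scale. With ratios centred on that median, 79 genes were higher and 104 lower, and with mitochondrial and ribosomal protein genes taken out of the totals, 68 were higher and 188 lower. The ratio also moved with transcript length, from a median of 0.35 for transcripts under 1000 bases to -0.73 for those of 8000 bases or more. Keratin positive cells, which are not endothelial, gave 0.31 and -0.46 in the same length classes. Relative to genes of like length, 91 were higher and 54 lower, and relative to the same gene's ratio in keratin positive cells, 60 were higher and 45 lower. A surplus of lower genes is therefore not given as a result, and ratios in other cell classes are given beside those of the leading genes.

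Pgf was higher in knockout tip-like cells, at 511 CPM against 167 CPM in WT (log2 ratio 1.61, interval 1.44 to 1.78). Other endothelial cells had a log2 ratio of 3.24, and cycling ones held 91.1 CPM in the knockout against 39.7 CPM in WT. In keratin positive cells the ratio was -0.49. With the richest cell of each library left out, the levels were 485 CPM in the knockout and 153 CPM in WT. Other tip cell genes outside the gate moved in both directions, 5 of 23 being higher and 7 lower. The list median was -0.17, beside -0.35 over all 7592 genes with at least 30 UMIs, of which 8.18% were 1.5-fold higher and 35.9% lower. Kcne3 (217 CPM in the knockout, 100.3 CPM in WT), Lxn, a carboxypeptidase inhibitor gene (229.7 and 109 CPM), and Adm (341 and 174 CPM) were higher. Pcdh17, a protocadherin gene (125 CPM in the knockout, 336 CPM in WT), Plxnd1, the semaphorin 3E receptor gene (468 and 947 CPM), Efnb2, the arterial ephrin gene (72.3 and 137 CPM), and Mcam (748 and 1285 CPM) were lower. Relative to genes of like length the list median was 0.33.

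Genes of glycolysis and of the response to low oxygen were higher together in the knockout. Of 24 measured genes, 16 passed 1.5-fold upward and 0 downward, beside 8.18% and 35.9% of all genes. The list's median log2 ratio was 1.01 in tip-like cells, 1.10 in other endothelial cells and -0.29 in keratin positive cells. Over the alternatives tried, the median in tip-like cells lay between 0.91 and 1.15. Gapdh, a glycolytic enzyme gene, was at 2784 CPM in the knockout against 1216 CPM in WT (2.29-fold), and the enzyme gene Tpi1 at 363 against 145 CPM (1.33). Hilpda, which encodes a lipid droplet protein induced by hypoxia, was at 245 against 79.7 CPM (1.62). The mitochondrial protein genes Higd1a (329.9 against 118 CPM) and Fam162a (220.2 against 71.0 CPM) and the ankyrin repeat gene Ankrd37 (324 against 127 CPM) were named by the same rule. Low members of the list, Hk2 (23.2 against 5.43 CPM), Pgk1 (70.2 against 17.4 CPM) and Bnip3 (78.4 against 25.7 CPM), had log2 ratios of 2.09, 2.01 and 1.61. In keratin positive cells the ratios were 0.40 for Gapdh, 0.02 for Tpi1, -0.09 for Hilpda, 0.13 for Higd1a, 0.60 for Fam162a and 0.34 for Ankrd37. In collagen positive cells, of which there were 106 in the knockout and 2717 in WT, they were 1.32 for Gapdh, 1.34 for Ankrd37, 0.82 for Fam162a, 0.80 for Higd1a, 0.53 for Tpi1 and 0.06 for Hilpda. Knockout keratin positive cells held more than knockout tip-like cells of Gapdh (3437 CPM), Tpi1 (629 CPM), Higd1a (481 CPM) and Fam162a (466 CPM). They held less of Hilpda (65.2 CPM) and Ankrd37 (64.4 CPM). Keratin positive cells were 6579 of 8033 filtered knockout cells and 3778 of 7820 filtered WT cells. The part of free RNA in the tip-like ratios was not tested.

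Interferon genes were higher in the knockout across cell types. Of 21 antigen presentation and interferon genes measured, 11 were higher in tip-like cells and 0 lower, beside 8.18% and 35.9% of all genes. The list median was 0.63 in tip-like, 0.90 in other endothelial and 0.75 in keratin positive cells. Isg15, a ubiquitin-like interferon-induced gene, was at 150.0 CPM in knockout and 40.2 CPM in WT tip-like cells (log2 ratio 1.90), with nearly the same ratio in keratin positive cells (1.89). Ier3, an immediate early survival gene, behaved alike, at 1011 CPM in the knockout and 346 CPM in WT (1.55), with 1.37 in keratin positive cells. Relative to keratin positive cells the list median was -0.21.

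Some large ratios rested on few cells. Fabp5, a fatty acid binding protein gene, was at 154 CPM in knockout and 18.5 CPM in WT tip-like cells (log2 ratio 3.06), with UMIs in 39 knockout and 18 WT members, and at 2.99 without the richest cell of each library. Ccl2, a monocyte chemokine gene, was at 134 CPM in the knockout and 19.2 CPM in WT (2.81), in 22 knockout and 20 WT members. Ccl21a came from 3 cells in each library. The haemoglobin genes were lower in the knockout, Hbb-bs at 4.77 CPM against 460.5 CPM in WT, but 1 WT cell held 94.7% of the WT UMIs, and without the richest cells the levels were 2.07 and 24.4 CPM. S100a4, Spp1 and Nupr1, over the free RNA limit, were higher with log2 ratios of 1.46, 1.37 and 1.22.

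Acer2, Slco2a1, Insr, Cd36 and Cd300lg were among the genes lower in knockout tip-like cells. Acer2, which encodes an alkaline ceramidase, was at 21.1 CPM in the knockout and 196 CPM in WT (log2 ratio -3.21, interval -3.79 to -2.69), against -3.18 in other endothelial and -1.03 in keratin positive cells. Slco2a1, a prostaglandin transporter gene, was at 57.3 CPM in the knockout and 351 CPM in WT (-2.61). In keratin positive cells its ratio was -0.33, at 255 CPM in the knockout and 320 CPM in WT. Insr, the insulin receptor gene, was at 168 CPM in the knockout and 729.6 CPM in WT (-2.12), against -0.58 in keratin positive cells. It had a UMI in 62.5% of knockout and 90.9% of WT members, which had similar depth. Cd36 was at 74.3 CPM in the knockout and 424 CPM in WT (-2.51), and Cd300lg, a capillary mucin receptor gene, at 45.0 and 229 CPM (-2.35). Both were close to absent from keratin positive cells, Cd36 at 0.372 CPM in the knockout and 1.09 CPM in WT and Cd300lg at 0.110 and 0.431 CPM.

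Tsc22d3, the glucocorticoid-induced gene GILZ, was at 27.3 CPM in the knockout and 157 CPM in WT (log2 ratio -2.52), and 7 of 10 glucocorticoid-induced genes were lower with 0 higher (median -1.08). The 35.9% of all genes that were lower stands beside this count. The list was lower in other classes too, with 8 of 10 lower in other endothelial cells (median -1.42) and 5 of 10 in keratin positive cells (median -0.54). Medians over all genes measured in these classes were -0.34 and -0.28, and no share of lower genes is given for them. The exchange factor gene Mcf2l (23.2 CPM in the knockout, 159 CPM in WT), the phosphatase gene Ptprg (51.8 and 241 CPM) and the sulfhydryl oxidase gene Qsox1 (53.8 and 220.3 CPM) had log2 ratios of -2.78, -2.22 and -2.03. Each of the 9 genes named here outside haemoglobin was lower in other endothelial cells too, with log2 ratios from -1.99 to -3.18. In cycling endothelial cells their ratios were smaller in size, from -0.57 for Slco2a1 to -2.25 for Cd36. Mt2, Nr4a1 and Nfia, over the free RNA limit, had log2 ratios of -1.55, -1.53 and -1.50.

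Several lists had more members lower than higher, beside the 35.9% of all genes that were lower. Of 20 endothelial transcription factor genes, 15 were lower and 0 higher (median -1.01). Gata2, a factor of endothelial and blood lineages, was at 17.0 CPM in the knockout and 79.0 CPM in WT, and Epas1, which encodes the hypoxia factor HIF-2 alpha, at 237 and 624 CPM. Of 15 guidance and migration genes, 12 were lower and 0 higher (median -1.01), with Sema6a at 57.3 CPM in the knockout and 162 CPM in WT and Robo4, an endothelial roundabout receptor gene, at 127 and 292 CPM. Of 14 basement membrane genes, 9 were lower and 0 higher (median -0.77), among them Hspg2 for perlecan (892 CPM in the knockout, 1821 CPM in WT) and Col4a1 for collagen IV (2362 and 4279 CPM). Fibroblast markers were lower beside them, 8 of 9 measured being lower and 0 higher (median -1.47). They had a UMI in 8.75% of knockout and 51.5% of WT members and summed levels of 85.2 and 329 CPM. Of these UMIs, 114 of 125 in the knockout and 532 of 907 in WT were in 5 cells. The part of fibroblast RNA in the basement membrane ratios was not tested. Pan-endothelial genes had 14 of 22 lower and 1 higher (median -0.80), the one being Icam2, an adhesion molecule gene, at 404 CPM in the knockout and 205 CPM in WT. Capillary and lipid handling genes had 8 of 15 lower and 3 higher (median -0.81). Relative to genes of like length their median was -0.16. The VEGF list was mixed, with 3 of 9 higher and 4 lower. Among the lower were Kdr, at 252 CPM in the knockout and 589 CPM in WT, and its co-receptor gene Nrp1, at 319 and 675 CPM. In other endothelial cells, 14 of 19 transcription factor, 9 of 15 guidance, 7 of 14 basement membrane and 15 of 22 pan-endothelial genes were lower. Higher there were 0, 1, 0 and 2. The medians in those cells were -0.90, -0.67, -0.58 and -0.84, beside -0.34 over all 5565 genes measured there. The 35.9% holds for tip-like cells only, and no such share is given for other endothelial cells.

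The list medians of tip-like cells shrank in other scalings. Relative to genes of like length they were -0.47 for transcription factors, -0.50 for guidance genes, -0.10 for basement membrane genes and -0.32 for pan-endothelial genes. Relative to keratin positive cells they were -0.61, -0.39, -0.24 and -0.45. For the VEGF list the like-length median was 0.20 against -0.45 unscaled, and for Notch genes 0.06 against -0.33, so no direction is given for these lists. Venous genes were lower within knockout tip-like cells as well, 11 of 14 being lower and 1 higher (median -1.17), beside 35.9% of all genes lower. In other endothelial cells, 8 of 14 venous genes were lower and 1 higher (median -0.76, beside -0.34 over all genes measured there). RNA quality genes had a median of -0.29 in tip-like cells. Tip-like cells of the libraries had medians of 7742 UMIs and 4.22% mitochondrial UMIs in the knockout and 7298 UMIs and 4.52% in WT.

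**Figure D4:**
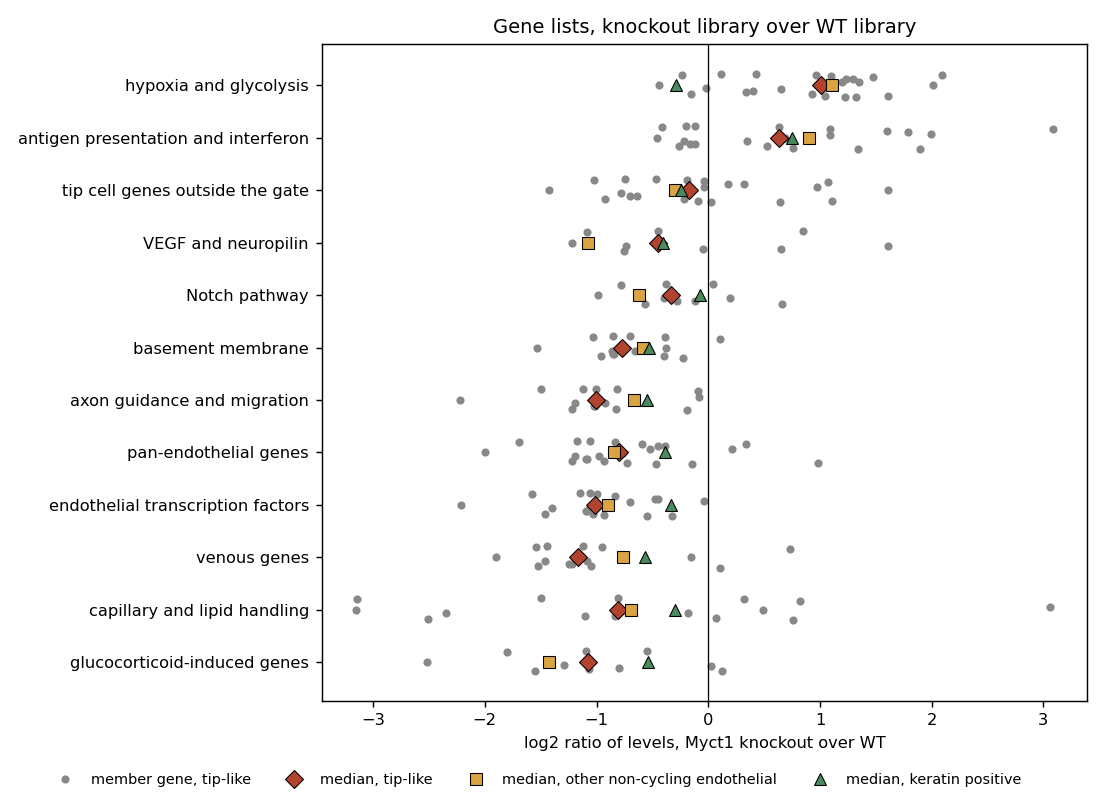
Log2 ratios of Myct1 knockout over WT (horizontal axis) for 12 gene lists (rows). Grey points are single genes in tip-like cells, and diamonds, squares and triangles are list medians in tip-like, other endothelial and keratin positive cells. Hypoxia and glycolysis genes have medians of 1.01, 1.10 and -0.29, while the interferon list is above 0 in each class.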

How the data were processed

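The authors deposited 1 table of raw UMI counts per library, genes against cell barcodes; Cell Ranger 2.1.1 and the build mm10 are named in the submitters' processing notes, and no source used here gives the annotation release. The tables' own total line and sum column were dropped. Every listed gene reached 4 UMIs in some barcode, so genes below that were taken to have been left out before deposit; comparisons used the 9127 symbols listed in both tables (536 were in the knockout table alone and 1376 in the WT table alone).

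Cells needed 500 genes and at most 10% mitochondrial UMIs. Endothelial cells had, per 10000 UMIs, at least 20 of Cdh5, Egfl7, Esam, Emcn, Plvap and Cd93, at most 4 of Krt8 and Krt18 and under 50 of Col1a1, Col1a2 and Col3a1; non-cycling ones had under 4 UMIs of Top2a, Mki67, Birc5, Ube2c and Cdk1. Keratin positive cells had over 4 of the keratins and collagen positive cells at least 50 of the collagens, both with under 20 of the endothelial genes; venous-gated cells had at least 2 UMIs of Ackr1 and Selp and no fewer than of the markers. Doublets were scored against simulated pairs within a library; 159 knockout and 298 WT cells scored above 0.3, among them 3 and 6 tip-like cells, and they were kept and left out as an alternative.

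Counts were summed per class and library and given as CPM of the sum over shared symbols, with 1467104 UMIs over knockout and 2760249 UMIs over WT tip-like cells. Levels carry exact Poisson, shares exact Clopper-Pearson and log2 ratios exact conditional binomial intervals at 95%. The intervals were checked on simulated counts only. Their coverage in these libraries, where a few cells held most UMIs of some genes, was not tested. Genes were named by the interval bound nearest 0, 15 per direction for tip-like against other cells (the weaker library deciding) and 12 per direction between genotypes, without predicted symbols and gate genes. Genes were kept apart if keratin or collagen positive cells held over 3 times their level in the higher of the groups compared. Of these, 3 were named per direction, and list members were named by size, up to 4. For 1 gene named by this rule, the values are not reported here. Igfbp3, Kdr and the genes followed over the marker sum were chosen after values were seen. The members, lists and rules were chosen with earlier results of these data known. The tools were matplotlib 3.10.9, scikit-learn 1.9.0, pandas 2.3.3, scipy 1.17.1, numpy 2.4.6 and Python 3.11.15.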

Additional observations from a re-analysis of the deposited data

Results flagged for a closer look

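In 3 listed genes tip-like and other endothelial cells differed in opposite directions in the libraries, and these differences between libraries were not tested. Cxcl9, an interferon-induced chemokine gene, was at 159 CPM in tip-like and 328 CPM in other endothelial cells of the knockout (log2 ratio -1.04), but at 74.6 and 16.2 CPM in WT (2.20). Edn1, which encodes endothelin 1, was at 126 and 222 CPM in the knockout (-0.82), but at 98.5 and 59.0 CPM in WT (0.74). Tagln, a smooth muscle gene, was at 6.82 and 81.3 CPM in the knockout (-3.58, on 10 and 34 UMIs), but at 29.3 and 17.3 CPM in WT (0.76).

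In 4 genes the knockout over WT ratio had opposite signs in tip-like and in other endothelial cells, again untested. Ramp3, an adrenomedullin receptor subunit gene, had 0.64 in tip-like and -0.87 in other endothelial cells, and Gja4, an arterial connexin gene, had -0.63 and 0.92. Gja4 rested on 33 knockout UMIs in tip-like and 21 in other endothelial cells. The 33 came from 3 cells, with 24 in 1 cell. Its interval in other endothelial cells, -0.009 to 1.84, included 0. The lymphatic gene Mmrn1 had 1.56 and -1.56, and Tagln had -2.11 and 2.23, each on fewer than 50 UMIs in the knockout.

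Cells outside the comparisons passed the marker rule too. Among cycling endothelial cells they were 77.2% in the knockout (44 of 57, interval 64.2 to 87.3) and 81.5% in WT (22 of 27, 61.9 to 93.7), at medians of 12298 and 11238 UMIs. Among barcodes that failed the gene or mitochondrial filter but passed the endothelial gate they were 58.3% in the knockout (35 of 60, 44.9 to 70.9) and 53.3% in WT (112 of 210, 46.3 to 60.2).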

How the results depend on the processing

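No paired analysis was possible because each genotype had 1 library and the labels give no replicate numbers. Depth limits the gate, as a cell of few UMIs can miss it, and no value carries a spread between mice. The tip-like share of the non-cycling endothelium was 54.3% in the knockout and 52.6% in WT at 6 marker UMIs, 72.7% and 75.1% at 4 per 10000 UMIs, and 71.8% in WT at 3. Genes 2-fold higher and lower in tip-like cells numbered 22 and 24 in the knockout at 6 marker UMIs, 18 and 28 in the knockout after thinning, with 19 higher in WT, and, at 30 UMIs in place of 100 CPM, 283 and 167 in the knockout and 253 and 174 in WT. Between genotypes, genes higher and lower in the knockout numbered 79 and 104 after centring, 68 higher without mitochondrial and ribosomal protein genes, and 132 and 1053 at 30 UMIs.

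Relative to genes of like length they numbered 91 and 54, and relative to keratin positive cells 45 were lower; both alternatives, the omission of barcodes found in both libraries and the restriction to members with Apln or Esm1 were chosen after seeing the data. The median of red cell transcripts over other WT cells was -5.70 at 6 marker UMIs and -8.30 after thinning, and thinned ratios of knockout over WT were 0.22 for Hbb-bs and 0.0019 for Hba-a1. Relative to keratin positive cells, list medians were 0.40 for angiopoietin and apelin receptors, -0.21 for antigen presentation and interferon and 0.26 for fibroblast markers. The causes were not tested. Leaving out likely doublets, stricter exclusion of mixed cells, equal weights per cell and omission of shared barcodes moved no count or share past these limits. Under the alternatives set out first, of 647 ratios of named genes over other cells, 539 stayed within the limits, 108 moved and 0 changed sign; of 261 between genotypes, 232 stayed, 27 moved and 2 changed sign. Under those added later, of 115 between genotypes, 63 stayed, 52 moved and 0 changed sign. Of list medians, 748 of 815 stayed, 65 moved and 2 changed sign under the alternatives set out first, and 110 of 149 stayed, 36 moved and 3 changed sign under those added later.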

Other observations

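Within the tip-like cells, members with an Apln or Esm1 UMI (116 knockout, 200 WT) were set beside those with neither (44 knockout, 142 WT), a split made after the data had been seen and on genes of the gate, so it is given as values only. In WT, the neuropeptide gene Nts was at 28.1 CPM with and 430 CPM without them, the interferon-induced genes Cxcl9 (38.9 and 129 CPM) and Gbp2 (52.1 and 151 CPM) were lower with them, and Ctgf, a matricellular YAP target (340 and 142 CPM), Pgf (209 and 102 CPM) and Adm (214 and 113 CPM) were higher with them. In the knockout, Ccl2 (168 CPM with, 18.3 CPM without), Fabp5 (188 and 36.5 CPM), Angptl4, an inhibitor of lipoprotein lipase (199 and 76.1 CPM), and Edn1 (148 and 48.7 CPM) were higher with them, and Gal ran opposite to WT, at 233 and 478 CPM in the knockout and 190 and 78.9 CPM in WT. Gal was found in 32 knockout and 36 WT members, with 64.0% of its knockout and 59.4% of its WT UMIs in 5 cells, and 5 cells held 81.7% of the knockout UMIs of Ccl2, so these values rest on few cells. The knockout over WT log2 ratio of Fabp5 was 4.29 among members with Apln or Esm1 and 0.19 among those without, and that of Ccl2 was 2.77 and 0.73.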
